A study of Homo sapiens with 48 samples.

Results

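The selenoprotein genes described here are GPX1, GPX4, TXNRD1, TXNRD2, SEPW1, SEPN1, SELK, SELT, SELM and SEP15, whose messenger RNAs carry a UGA codon inside the reading frame that is read as selenocysteine. The 10 genes were taken from the deposited expected-count table by gene name, out of 57820 genes listed there, and all 10 were among the 19129 genes with enough counts to test. The older names stand as in that table, where SEPW1, SEPN1, SELK, SELT, SELM and SEP15 are the genes now called SELENOW, SELENON, SELENOK, SELENOT, SELENOM and SELENOF. RNA depleted of ribosomal RNA was sequenced from Flp-In 293 T-REx cells, a human embryonic kidney line with 1 fixed genomic site that receives the transgene. Of 8 stable lines, 7 express a CLIP-tagged UPF1, namely the wild-type protein (WT) or the forms K498A, DE636AA, R843C, A546H, GA-KH and E797R, and the eighth, CLIP, expresses the tag alone. Each line was transfected at 40 nM with an siRNA against endogenous UPF1 (siUPF1) or with a non-targeting siRNA (siNT) and harvested after 72 h, with 3 libraries per group, 16 groups and 48 libraries. Every line was cultured in hygromycin B and also carries its own UPF1 gene. Each UPF1 form is represented by 1 stable line, so the form and the line cannot be told apart.

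UPF1 is the RNA helicase at the centre of nonsense-mediated decay (NMD), which degrades transcripts whose translation ends well upstream of an exon junction. K498A and DE636AA are known as forms that have lost ATPase function. A selenocysteine UGA is decoded with the help of a hairpin in the 3′ end of the transcript (the SECIS element), its binding protein SECISBP2, the elongation factor EEFSEC and a dedicated transfer RNA. When selenium or this machinery is limiting, the same UGA can act as a stop codon, and several selenoprotein transcripts are then known as substrates of NMD. The proteins themselves are mostly oxidoreductases with selenocysteine in the active site.

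The sequences around the selenocysteine codon are shown because this codon is the feature that all 10 transcripts share. Each stretch was read from the GENCODE 29 transcript (GRCh38 annotation) and runs 5′ to 3′ in DNA letters, with up to 12 bases before and up to 15 after the codon, and the capitals mark the selenocysteine TGA.
GPX1: gtggcgtccctcTGAggcaccacggtccgg
GPX4: gtggcctcccagTGAggcaagaccgaagta
TXNRD1: caggctggctgcTGAggttaa
TXNRD2: gtgacaggctgcTGAgggtaa
SEPW1: tattgtggcgctTGAggctacaagtccaag
SEPN1: gaccagtcctgcTGAggttcagggcggact
SELK: atggctggtggaTGAggaaggtaa
SELT: atttgtgtttccTGAggttataggcgggtg
SELM: acctgcgggggaTGAcagctgaaccgccta
SEP15: gaagtttgtggaTGAaaattgggaaggttc

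The base after the TGA was G in 8 of the 10, C in SELM and A in SEP15. The shorter stretches of TXNRD1, TXNRD2 and SELK end at the annotated stop codon, since the selenocysteine is the penultimate residue of both thioredoxin reductases and lies 2 codons before the end in SELK. In SEPW1 it is codon 13 of 87, in SELM codon 48 of 145, in GPX1 codon 49 of 203, in SELT codon 49 of 195 and in GPX4 codon 73 of 197, so that reading the UGA as a stop would end translation early. SEP15 has it at codon 96 of 165 and SEPN1 at codon 428 of 556. A longer SEPN1 transcript holds an additional annotated in-frame TGA in an exon that the transcript used here skips. Each TGA lies in a coding exon; on GRCh38 that of SEPW1 is at chr19:47780732-47780734 on the plus strand in exon 2 of 6, that of TXNRD2 at chr22:19877111-19877113 on the minus strand in exon 17 of 18, and that of GPX1 at chr3:49358132-49358134 on the minus strand in exon 1 of 2.

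Library totals ran between 21.3 and 47.1 M expected counts, with a median of 32.3 M. In the CLIP line UPF1 was at 18.2, 36.8 and 17.7 CPM (counts scaled to the normalised library total) with siUPF1, against 105, 106 and 113 CPM with siNT, a log2 fold change of -2.17 (SE 0.17). In the other 7 lines transgene and endogenous reads were counted together, group means were 3958 to 7218 CPM with siUPF1 and 4165 to 5614 CPM with siNT, and UPF1 was not called, so the table does not show the loss of the endogenous transcript there. The 5 markers of HEK293-derived cells (VIM, KRT8, KRT18, CDH2 and LIN28B) were at 61.8 CPM or more in every library. Of the listed markers of other cell types, ALB, PTPRC, CD3E, MYH6, HBB, CDH5 and LYZ stayed at or under 0.182 CPM and GFAP at or under 0.904 CPM, whereas COL1A1 was at 1.02 to 4.67 CPM, COL3A1 at 2.61 to 13.4 CPM and EPCAM at 64.9 to 100 CPM. The library CLIP siUPF1 replicate 2, which had the highest UPF1 of the CLIP siUPF1 libraries at 36.8 CPM, stood apart. Across 14261 genes the Spearman correlation between GC content and log2 difference from the siNT mean of the line was 0.66 in it, against -0.17 to 0.42 in the other 23 siUPF1 libraries, and mitochondrial genes took 0.63% of its counts against 2.32% and 2.13% in replicates 1 and 3. Counts of calls in CLIP alone are therefore also given without it, as are CLIP values of named genes whose call changed. Other CLIP values include it unless stated.

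With siUPF1, SEPW1 and TXNRD2 rose in all 8 lines, GPX1 in 5 and SELK in 5, whereas the other 6 genes passed the test in 3 lines at most. Of the 80 responses, 10 genes in 8 lines, 29 were higher, 4 lower and 47 not called, where a call means an adjusted p below 0.05 (edgeR's quasi-likelihood test with Benjamini-Hochberg adjustment over all 19129 genes). Over all gene and line pairs 17.2% were called higher and 15.8% lower. SEPW1 and TXNRD2 made up 16 of the 29 higher calls, and 5.75% of all genes were called higher in all 8 lines. These are changes in RNA level per library; a change in the share of cells and a change in RNA per cell cannot be told apart.

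By line, DE636AA had 5 members higher and 0 lower, where 16.7% of all genes were higher and 17.6% lower, and K498A had 5 and 0 (16.2% and 16.5%). WT had 4 and 0 (14% and 13.3%), GA-KH 4 and 0 (14.5% and 13.8%) and E797R 3 and 0 (16% and 13.5%). R843C had 2 and 0 (17.7% and 14.8%), A546H 2 and 1 (17.2% and 15%) and CLIP 4 and 3 (25.1% and 22.3%). The 3 lower calls in CLIP were GPX4, SELT and TXNRD1. The CLIP count was 4 higher and 1 lower without CLIP siUPF1 replicate 2, beside 21.4% and 19.1% of all genes. The median log2 fold change of the 10 members was 0.39 in DE636AA, 0.29 in K498A, 0.14 in WT, 0.12 in GA-KH, 0.06 in both A546H and E797R, -0.01 in R843C and -0.05 in CLIP, beside medians of all genes between -0.02 and 0.02. The CLIP median was 0.05 without CLIP siUPF1 replicate 2.

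**Figure D1:**
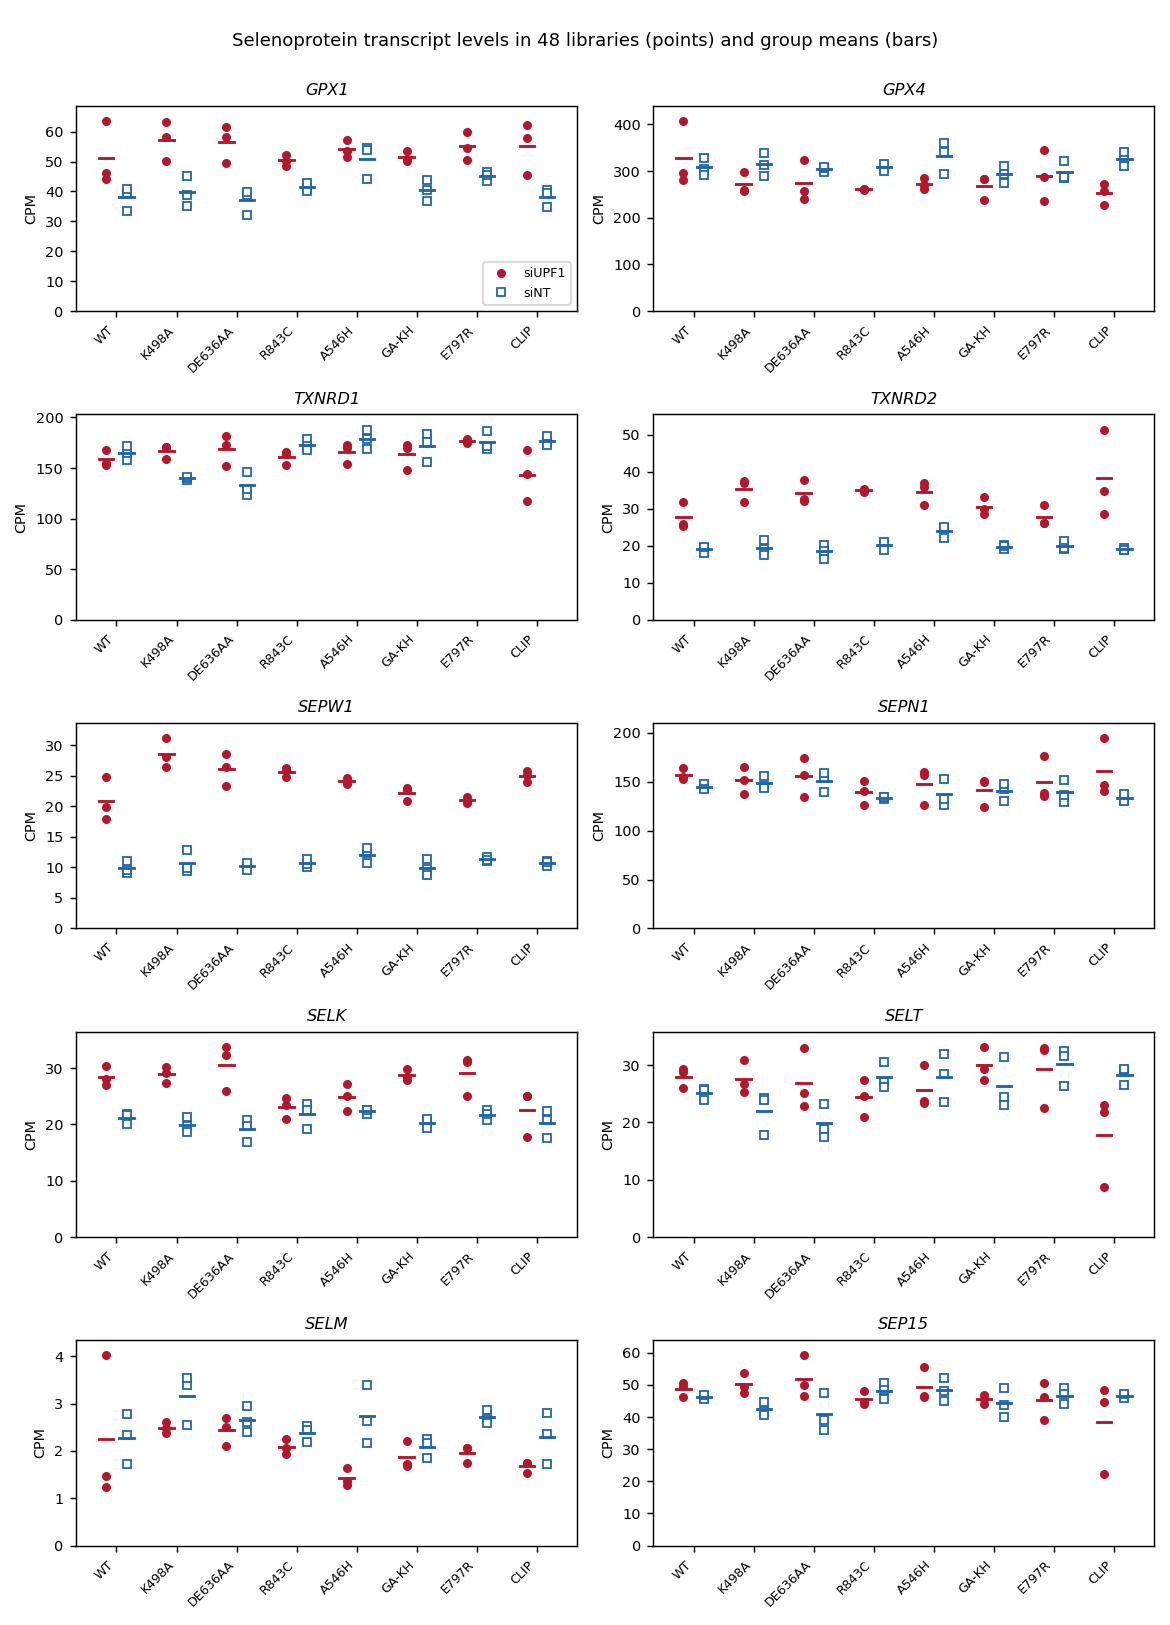
Level of each of the 10 selenoprotein transcripts (CPM, linear axis from 0) in every library of the 8 lines, with filled red circles for siUPF1 at the left, open blue squares for siNT at the right and a bar at the mean of each group. In SEPW1 and TXNRD2 every siUPF1 library lies above every siNT library of its line in all 8 lines, and in SELT and SEP15 the lowest CLIP siUPF1 point, at 8.68 and 22.3 CPM, is replicate 2.

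SEPW1, a small selenoprotein of the thioredoxin fold, was the member that changed most. In the CLIP line it was at 24.0, 25.8 and 25.2 CPM with siUPF1, against 11.1, 10.3 and 10.9 CPM with siNT. The WT line gave 18.0, 19.99 and 24.8 CPM with siUPF1, against 9.06, 9.65 and 11.1 CPM with siNT. In both lines the groups were fully separated, and the same held in the other 6. The log2 fold change was 1.42 in K498A, 1.36 in DE636AA, 1.27 in R843C, 1.15 in GA-KH, 1.07 in WT, 1.00 in A546H, 0.89 in E797R and 1.22 in CLIP (SE 0.11 in each), all with adjusted p of 2.4e-08 or less in edgeR's quasi-likelihood test with Benjamini-Hochberg adjustment.

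Ordered by its mean with siUPF1, SEPW1 was at 28.6 ± 2.40 CPM in K498A, 26.1 ± 2.63 in DE636AA, 25.6 ± 0.785 in R843C, 25.0 ± 0.892 in CLIP, 24.2 ± 0.521 in A546H, 22.2 ± 1.17 in GA-KH, 20.99 ± 0.51 in E797R and 20.9 ± 3.51 in WT (SD, n = 3). Neighbours in this order lay within the sum of their SDs of each other, except A546H and GA-KH, whose means lay farther apart than that. With siNT its group means lay between 9.93 and 12.1 CPM. Over all 24 siUPF1 libraries the range was 18.0 to 31.2 CPM with a median of 24.4, and over all 24 siNT libraries 8.82 to 13.3 CPM with a median of 10.7, so that no siUPF1 library of any line was as low as the highest siNT library. Leaving out any 1 library kept the SEPW1 call in every line.

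The thioredoxin reductases keep thioredoxin reduced, TXNRD1 in the cytosol and TXNRD2 in mitochondria, and their transcripts responded differently. TXNRD2 was at 28.5, 51.4 and 34.9 CPM with siUPF1 in CLIP, against 19.5, 18.9 and 18.7 CPM with siNT. In the WT line it was at 26.0, 25.3 and 31.8 CPM with siUPF1, against 19.4, 18.2 and 19.6 CPM with siNT. The highest of these values belonged to CLIP siUPF1 replicate 2, and the groups did not overlap with or without it.

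TXNRD2 rose by log2 fold changes of 0.89 in DE636AA, 0.87 in K498A, 0.80 in R843C, 0.63 in GA-KH, 0.54 in WT, 0.53 in A546H, 0.48 in E797R and 1.01 in CLIP (SE 0.12 to 0.13), with adjusted p between 2.0e-08 and 0.0032 (edgeR's quasi-likelihood test, Benjamini-Hochberg). Without CLIP siUPF1 replicate 2 the CLIP value was 0.73 and still called, and the TXNRD2 call held in every other line whichever library was left out.

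TXNRD1 moved in different directions. It rose in K498A, at 159, 171 and 171 CPM with siUPF1 against 138, 140 and 141 CPM with siNT, and in DE636AA, at 181, 152 and 173 CPM against 146, 124 and 130 CPM. In CLIP it was lower, at 144, 118 and 168 CPM with siUPF1 against 176, 173 and 182 CPM with siNT. The groups did not overlap in these 3 lines. The R843C groups did not overlap either, at 153 to 166 CPM with siUPF1 against 168 to 179 CPM with siNT, but without a call. Log2 fold changes were 0.25 (SE 0.09, adjusted p = 0.0189) in K498A, 0.34 (SE 0.09, adjusted p = 0.0017) in DE636AA and -0.30 (SE 0.09, adjusted p = 0.0035) in CLIP in edgeR's quasi-likelihood test, and between -0.11 and 0.01 with no call in the other 5 lines. Without CLIP siUPF1 replicate 2 the CLIP value was -0.19 (adjusted p = 0.0590, edgeR). In K498A the call was lost, at 0.22 to 0.25, when siNT replicate 1 or 2 or siUPF1 replicate 2 or 3 was left out.

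The glutathione peroxidases GPX1, which reduces hydrogen peroxide in the cytosol, and GPX4, which reduces lipid hydroperoxides in membranes and restrains ferroptosis, also differed. GPX1 was at 45.6, 62.2 and 57.9 CPM with siUPF1 in CLIP, against 40.5, 34.8 and 39.5 CPM with siNT. In DE636AA it was at 58.3, 49.7 and 61.7 CPM with siUPF1, against 39.0, 32.3 and 39.7 CPM with siNT. Every siUPF1 library was above every siNT library in 7 lines, the exception being A546H, where siUPF1 gave 51.4, 57.2 and 53.6 CPM against 54.5, 44.1 and 53.9 CPM with siNT.

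GPX1 rose in WT (log2 fold change 0.43, adjusted p = 0.0061), K498A (0.53, 6.2e-04), DE636AA (0.61, 1.0e-04), GA-KH (0.35, 0.0230) and CLIP (0.53, 3.6e-04), each with an SE of 0.12, in edgeR's quasi-likelihood test with Benjamini-Hochberg adjustment. It was not called in R843C (0.28), E797R (0.28) or A546H (0.09). With a replicate block within each line GPX1 was called in R843C (0.28, adjusted p = 0.0233, edgeR). In WT the value without siUPF1 replicate 3, the shallowest library and the one with the GC correlation of 0.42, was 0.22 (adjusted p = 0.200, edgeR), and without siNT replicate 2 it was 0.34 (adjusted p = 0.0583). In GA-KH the call was lost when any library but siNT replicate 1 was left out. GPX1 is annotated in GENCODE 29 as a polymorphic pseudogene.

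GPX4 was called lower in CLIP, at 228, 256 and 272 CPM with siUPF1 against 327, 310 and 341 CPM with siNT, where the groups were fully separated. Its log2 fold change there was -0.37 (SE 0.11, adjusted p = 0.0073 in edgeR's quasi-likelihood test). It was -0.39 without CLIP siUPF1 replicate 2 and -0.30 (adjusted p = 0.0548, edgeR) without CLIP siUPF1 replicate 1. In the other lines it was between -0.28 and 0.09 with no call, although siUPF1 libraries also lay below all siNT libraries in R843C and A546H. With the replicate block within each line GPX4 was called lower in R843C (-0.24, adjusted p = 0.0363, edgeR). In WT siUPF1 the values were 281, 297 and 407 CPM, the last being the shallowest library again.

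Of the members of the endoplasmic reticulum, SELK, a membrane protein linked to degradation of misfolded proteins, rose in 5 lines. In DE636AA it was at 33.8, 32.3 and 25.9 CPM with siUPF1, against 20.8, 19.6 and 16.9 CPM with siNT. In GA-KH it was at 28.5, 29.8 and 27.9 CPM with siUPF1, against 20.4, 20.9 and 19.4 CPM with siNT. The groups were separated in all 5 lines where SELK was called. The log2 fold changes were 0.43 in WT, 0.54 in K498A, 0.68 in DE636AA, 0.50 in GA-KH and 0.43 in E797R (SE 0.11; adjusted p 0.0035 or less in edgeR's quasi-likelihood test), and they kept their calls without any 1 library. In R843C the value was 0.08, in A546H 0.16 and in CLIP 0.17, none called. In CLIP siUPF1 replicate 2 SELK was at 17.7 CPM, the other siUPF1 libraries at 25.1 and 25.0 CPM, and without it the CLIP value was 0.30 (adjusted p = 0.0228, edgeR).

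SELT, a thioredoxin-fold protein of the endoplasmic reticulum membrane, was called lower in CLIP, at 23.0, 8.68 and 21.8 CPM with siUPF1 against 29.2, 29.3 and 26.6 CPM with siNT. Replicate 2 was lower than any other of the 48 libraries. The log2 fold change was -0.66 (SE 0.20, adjusted p = 0.0062, edgeR) and without replicate 2 it was -0.35 (adjusted p = 0.0846). In the other 7 lines it ran from -0.20 in R843C to 0.44 in DE636AA with no call, though the DE636AA value was called with the replicate block within each line (adjusted p = 0.0332, edgeR). SELT shares 61 exon bases with SERP1 on the opposite strand, and the strand setting of the counting is not given in the sources used here, so reads of that stretch are uncertain.

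SEPN1, a glycoprotein of the endoplasmic reticulum involved in calcium handling and mutated in inherited muscle disease, was at 141, 195 and 147 CPM with siUPF1 in CLIP, against 131, 130 and 137 CPM with siNT. Its log2 fold change of 0.27 there (SE 0.11, adjusted p = 0.0367, edgeR) was 0.11 (adjusted p = 0.482) without replicate 2, and the call was also lost, at 0.26 to 0.30, when any 1 of the siNT libraries was left out. Values in the other 7 lines were 0.02 to 0.12 with no call, and 378 of its exon bases, 8.54%, are shared with AL020996.2 on the same strand.

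SELM and SEP15, both proteins of the endoplasmic reticulum lumen, the second a partner of the glycoprotein folding sensor UGGT, were called in 1 line and in 0 lines. SELM was the lowest of the 10, with 31 to 137 counts per library. It was called lower in A546H, at 1.29, 1.36 and 1.64 CPM with siUPF1 against 2.17, 2.63 and 3.39 CPM with siNT, with log2 fold change -0.92 (SE 0.25, adjusted p = 0.0044, edgeR). In the other lines SELM had negative values of -0.46 to -0.09 with no call. In WT siUPF1 it was at 1.25, 1.48 and 4.02 CPM, and without replicate 3 the WT value was -0.77 (adjusted p = 0.0047, edgeR). SEP15 was called in no line, with log2 fold changes between -0.27 in CLIP and 0.34 in DE636AA (SE 0.14). At an unadjusted p under 0.05 edgeR gave 1 of its 8 values, that in DE636AA, which DESeq2 called (adjusted p = 0.0417), as did edgeR with the replicate block within each line (0.35, adjusted p = 0.0253).

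**Figure D2:**
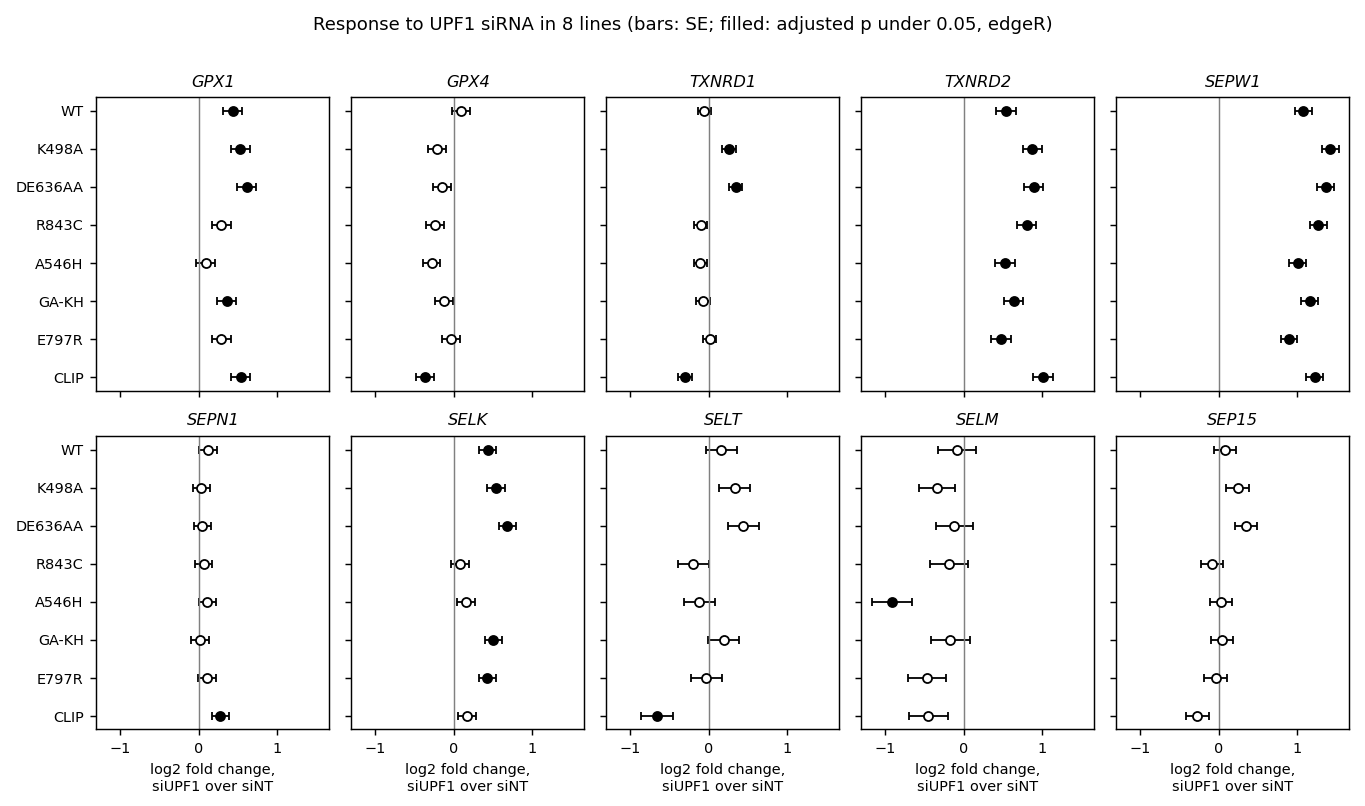
Log2 fold change of siUPF1 over siNT for each gene in the 8 lines, with WT at the top and the tag-only line CLIP at the bottom of each panel; bars are the SE of the model and filled points passed an adjusted p under 0.05 in edgeR's quasi-likelihood test. SEPW1 (0.89 to 1.42) and TXNRD2 (0.48 to 1.01) are filled in all lines, GPX1 and SELK in 5 each, and SEP15 in none.

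Counted by library rather than by test, all 3 siUPF1 libraries lay above all 3 siNT libraries in 35 of the 80 gene and line pairs and below them in 8. Over all genes tested the same held in 23.7% and 22.5% of pairs. Such a separation in all 8 lines was found in 6.27% of genes and among the members in SEPW1 and TXNRD2.

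By the rule that a stop codon more than 50 bases upstream of the last exon junction marks a transcript for NMD, 8 of the 10 selenocysteine UGAs would qualify if read as stops. The distance from the UGA to the last junction is 470 bases in SELT, 342 in GPX4, 243 in SEPW1, 216 in SEPN1, 135 in SELM, 105 in GPX1, 78 in SEP15 and 71 in TXNRD2. In SELK the UGA lies 5 bases before the last junction, and in TXNRD1 it is in the last exon, 63 bases past it. The annotated stop of TXNRD2 lies 65 bases before the last junction and so also meets the rule, which those of the other 9 do not. Of the 8 genes 4 were higher, 2 lower and 2 not called in CLIP, where 25.1% of all genes were higher and 22.3% lower, with log2 fold changes from -0.66 to 1.22. The count was 3 higher, 1 lower and 4 not called without CLIP siUPF1 replicate 2. SELT and GPX4, with the longest distances, were the pair called lower among them, SELT no longer without that library. Over the 8 lines, SEPW1 and TXNRD2 were called higher in 8, GPX1 in 5 and SEPN1 in 1, all of them over the threshold. SELT, GPX4 and SELM, also over it, were each called lower in 1 line, and SEP15 was called in 0. SELK, under the threshold, was called higher in 5 lines, and TXNRD1, in the last exon, higher in 2 and lower in 1.

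Over all 22 selenoprotein genes tested, the members included, 12 had the UGA more than 50 bases upstream, with 4 higher, 2 lower and a median log2 fold change of 0.25 in CLIP, against 4, 1 and 0.12 without CLIP siUPF1 replicate 2. Another 7 had it in the last exon, with 2 higher, 2 lower and a median of 0.01, against 2, 0 and -0.03 without that library. Of these 7, DIO3 and SEPHS2 have a single exon and so no junction. The 2 higher were DIO3 and DIO2, both at the low levels given further on. The remaining 3 had it 50 bases or fewer upstream, with 1 higher, or 2 without that library. These counts too stand beside the 25.1% and 22.3% of all genes called in CLIP, or 21.4% and 19.1% without it. The distance depends on the transcript. Another annotated coding transcript of TXNRD2 places the UGA past the last junction (-124 bases), and another of GPX1 has a single exon and so no junction. In GPX4 the distance is 317 to 364 bases over the annotated coding transcripts, and in SEP15 the shortest is 28 bases. The gene-level counts do not tell the transcripts apart. Members also differed in GC content, which is 35.2% in SELT, 36.8% in SEP15, 42.8% in SELK, 43.6% in TXNRD1, 58.6% in SEPW1, 59.8% in SEPN1, 63.0% in GPX4 and SELM, 63.1% in TXNRD2 and 64.2% in GPX1. In CLIP siUPF1 replicate 2 the first 4 of these were lower than in replicates 1 and 3, as was SELM at 63.0% GC. SEPW1, SEPN1, TXNRD2 and GPX1 were higher, and GPX4 lay between the 2 others.

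**Figure D3:**
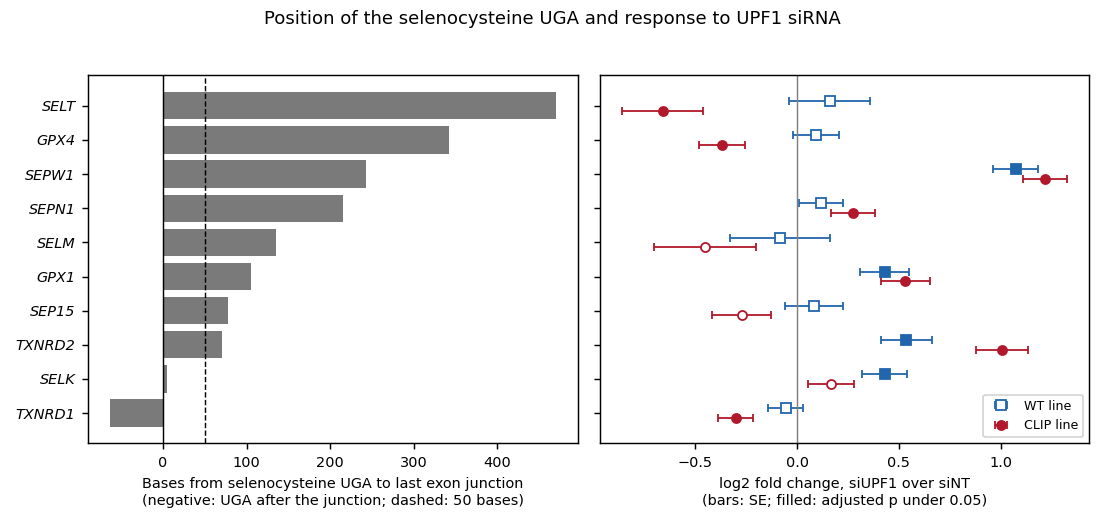
Left, bases between the selenocysteine UGA and the last exon junction in the reference transcript of each gene, ordered by that distance, with a dashed line at 50 bases and a negative bar where the UGA follows the junction. Right, log2 fold change of siUPF1 over siNT with its SE in the WT line (blue squares) and the tag-only line CLIP (red circles), filled where adjusted p was under 0.05; SELT, at 470 bases, is lowest in CLIP at -0.66 and SEPW1, at 243 bases, is highest at 1.22.

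The response of each UPF1-expressing line was then set against that of CLIP, which asks whether expression of a UPF1 form alters the effect of the knockdown. The 7 comparisons share the CLIP libraries. Differences were called for SELT in WT (0.82, SE 0.28, adjusted p = 0.0497), K498A (0.99, SE 0.28, adjusted p = 0.0146), DE636AA (1.10, SE 0.28, adjusted p = 0.0051) and GA-KH (0.85, SE 0.28, adjusted p = 0.0349) in edgeR's quasi-likelihood test of the interaction. TXNRD1 differed in K498A (0.56, SE 0.12, adjusted p = 0.0014) and DE636AA (0.64, SE 0.12, adjusted p = 2.0e-04). In DE636AA SELK (0.52, SE 0.16, adjusted p = 0.0206) and SEP15 (0.62, SE 0.20, adjusted p = 0.0294) were also called, and in E797R TXNRD2 (-0.53, SE 0.18, adjusted p = 0.0402).

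This made 1 of 10 members called in WT, where 11.9% of all genes were called, 2 in K498A (13.6%), 4 in DE636AA (17.9%), 1 in GA-KH (14.3%) and 1 in E797R (13.3%). Those shares depended on single libraries, and when 1 was left out they ranged over 8.86% to 19.2% in WT, 8.19% to 22.8% in K498A, 12.1% to 26.5% in DE636AA, 9.08% to 25.5% in GA-KH and 9.03% to 21.9% in E797R, each time highest without CLIP siUPF1 replicate 1. In R843C (0.753% of genes) edgeR called 0 members, with 0 at an unadjusted p under 0.05 and 0 by DESeq2. In A546H (5.63%) edgeR called 0, with 2 at an unadjusted p under 0.05 and 0 by DESeq2. The percentages are of adjusted edgeR calls, and the share of all genes at an unadjusted p or by DESeq2 was not counted. Without CLIP siUPF1 replicate 1 the shares were 2.93% in R843C and 17% in A546H. Several of these calls turned on the CLIP library that stood apart. Without CLIP siUPF1 replicate 2, SELT in K498A and DE636AA and TXNRD1 in K498A and DE636AA kept their calls, while SELT in WT (0.49, adjusted p = 0.166, edgeR) and GA-KH (0.52, adjusted p = 0.138), SELK (0.38, adjusted p = 0.0798) and SEP15 (0.35, adjusted p = 0.0834) in DE636AA and TXNRD2 in E797R (-0.29, adjusted p = 0.255) lost them. When each of the 12 libraries of a comparison was left out in turn, the call held in 3 fits for SELT in WT, 4 for TXNRD2 in E797R, 5 for SELT in GA-KH, 7 for SEP15 and 8 for SELK in DE636AA, and 11 for SELT in K498A, where it was lost without K498A siNT replicate 3 (0.86, adjusted p = 0.0618, edgeR). SELT in DE636AA and TXNRD1 in K498A and DE636AA kept their calls in all 12. When only the groups compared were fitted, however, edgeR called 0 members in WT, K498A, DE636AA, GA-KH and E797R. The share of all genes called in those fits was not counted, so whether the loss is particular to the members is not known.

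For SEPW1 no difference from CLIP was called. It was 0.20 in K498A (95% interval -0.09 to 0.49), 0.14 in DE636AA (-0.16 to 0.43), 0.05 in R843C (-0.25 to 0.34), -0.06 in GA-KH (-0.36 to 0.23), -0.15 in WT (-0.44 to 0.15), -0.22 in A546H (-0.51 to 0.08) and -0.33 in E797R (-0.62 to -0.03). For TXNRD2 the 7 differences were all negative, from -0.53 in E797R to -0.12 in DE636AA, but without CLIP siUPF1 replicate 2 those of K498A (0.13), DE636AA (0.15) and R843C (0.05) were positive. The WT value was -0.47 (95% interval -0.82 to -0.12) and missed the threshold at an adjusted p of 0.0785 in edgeR.

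**Figure D4:**
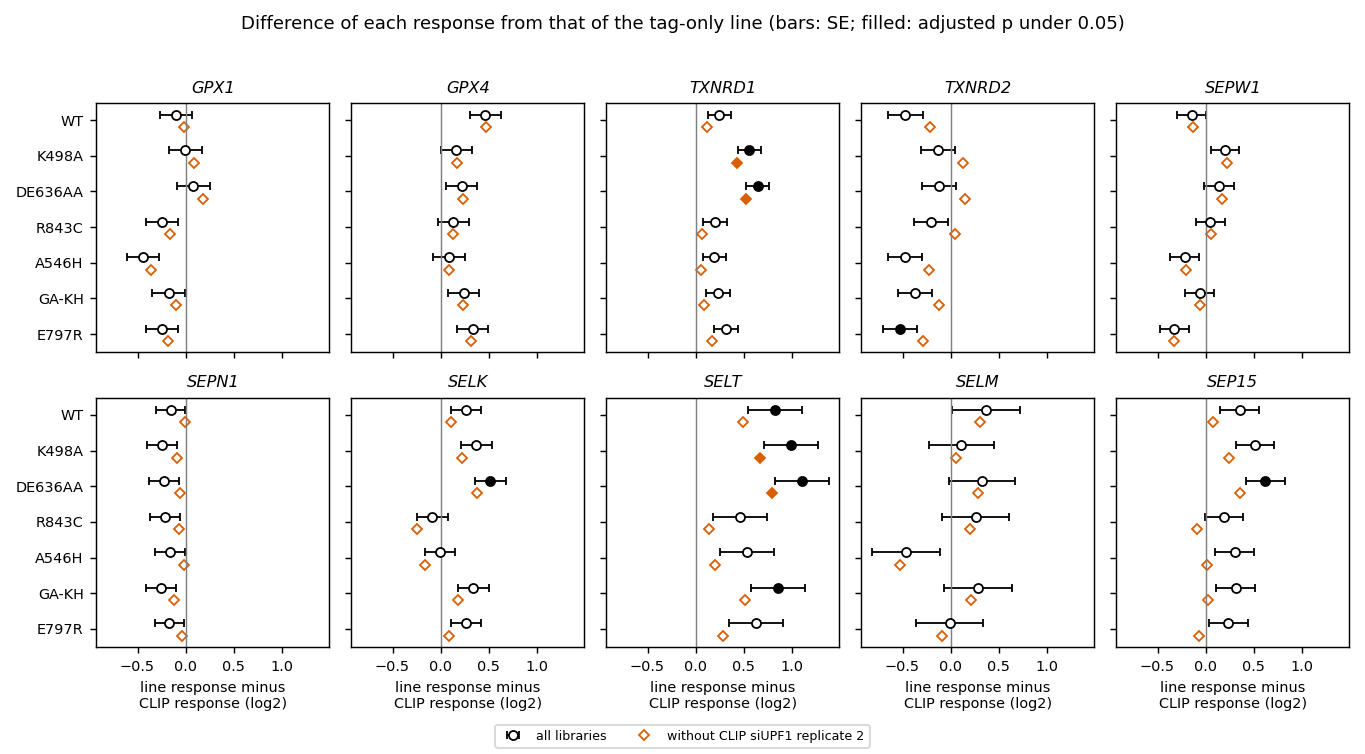
Response of each UPF1-expressing line minus the response of the tag-only line CLIP (log2 scale) for the 10 genes, from all libraries (black circles, bars are SE) and without CLIP siUPF1 replicate 2 (orange diamonds), filled where adjusted p was under 0.05. Filled black circles are seen in SELT, TXNRD1, SELK, SEP15 and TXNRD2, and filled diamonds in SELT and TXNRD1, in K498A and DE636AA in both genes.

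Set against the WT line, which asks whether a mutant form differs from wild-type UPF1, 1 member differed. TXNRD1 in DE636AA had a response 0.40 above that in WT (SE 0.12, adjusted p = 0.0488 in edgeR's quasi-likelihood test), where 4.50% of all genes were called, and the call held in 3 of 12 fits that each left out 1 library. In K498A (3.26% of genes), R843C (1.94%) and A546H (0.298%) edgeR called 0 members, with 2 at an unadjusted p under 0.05 and 0 by DESeq2 in each. Here too the percentages are of adjusted edgeR calls and give no background for the counts at an unadjusted p. With the replicate block within each line SEPW1 (0.36, adjusted p = 0.0459, edgeR) and TXNRD1 (0.31, adjusted p = 0.0386) were called in K498A. That fit called 1180 of all 19129 genes in K498A against WT, where the main fit called 623. In GA-KH (0%) and E797R (0%) edgeR called 0, with 0 at an unadjusted p under 0.05 and 0 by DESeq2.

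Between siNT libraries, TXNRD1 was the 1 member to differ from CLIP. It was at 146, 124 and 130 CPM in DE636AA siNT, against 176, 173 and 182 CPM in CLIP siNT, and the groups did not overlap. The log2 difference was -0.41 (SE 0.09, adjusted p = 0.0179 in edgeR's quasi-likelihood test), and 1.34% of all genes were called. That share was 5.75% without DE636AA siNT replicate 1 and 0.0206% without DE636AA siNT replicate 2. The TXNRD1 difference was called without DE636AA siNT replicate 1 or CLIP siNT replicate 2. It was -0.42 to -0.36, with an adjusted p above the threshold, when CLIP siNT replicate 1 or 3 or DE636AA siNT replicate 2 or 3 was left out. K498A siNT was at 138, 140 and 141 CPM, a log2 difference of -0.34 (adjusted p = 0.136, edgeR). There edgeR called 0 members, with 1 at an unadjusted p under 0.05, and DESeq2 called 1, TXNRD1 (adjusted p = 0.0350), beside 0.0366% of all genes called by edgeR. In WT (0.0314% of genes), R843C (0.0889%), GA-KH (0.0627%) and E797R (0.0261%) edgeR called 0 members, with 0 at an unadjusted p under 0.05 and 0 by DESeq2. In A546H siNT (0.125%) edgeR called 0, with 2 at an unadjusted p under 0.05 and 0 by DESeq2. Again the percentages are of adjusted edgeR calls and give no background for the counts at an unadjusted p or by DESeq2. The rises of TXNRD1 with siUPF1 in K498A and DE636AA thus stood beside lower siNT levels. With siUPF1 the group means were 167 CPM in K498A and 169 CPM in DE636AA. They were 177 CPM in E797R, 166 CPM in A546H, 164 CPM in GA-KH, 161 CPM in R843C and 159 CPM in WT. The CLIP mean was 143 CPM, with replicate 2 at 118 CPM.

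Per kilobase of reference transcript, GPX4 was by far the most abundant of the 10 in CLIP siNT libraries at 355 CPM per kb, followed by TXNRD1 at 44.97, GPX1 at 33.2, SEPN1 at 31.5, SEP15 at 26.2, SELK at 12.4, SEPW1 at 12.1, TXNRD2 at 9.01, SELT at 8.17 and SELM at 2.18 CPM per kb. The genes whose level followed that of SEPW1 most closely over the 16 group means of log2 CPM were MARCH8 (Pearson r 0.995), MCOLN1 (0.989) and CYB561D1 (0.986), among 11191 genes. For TXNRD2 they were UROD (0.983), GLA (0.982) and EXTL3 (0.982), and for SELM CORO6 (0.897), RPS7 (0.875) and KRT8 (0.873). The 16 means share the siRNA contrast, so genes that respond to siUPF1 in every line are alike by this measure.

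Other selenoprotein genes gave a mixed picture. Of 15 listed, 12 were tested. In CLIP 3 were higher and 1 lower, with 25.1% of all genes called higher and 22.3% lower, and the median log2 fold change was 0.12 beside -0.01 for all genes. Leaving out CLIP siUPF1 replicate 2 gave 4 higher, 0 lower and a median of 0.06. DIO3, the deiodinase that inactivates thyroid hormone, rose in all 8 lines (1.16 to 1.97), from a low level of 2.33 ± 0.979 CPM with siUPF1 against 0.586 ± 0.157 CPM with siNT in CLIP. DIO2, which activates thyroid hormone, rose in 5 lines (1.95 in CLIP) at 0.675 ± 0.269 CPM with siUPF1 against 0.168 ± 0.0332 CPM with siNT in CLIP. VIMP, of the endoplasmic reticulum membrane, had a log2 fold change of 0.28 and EPT1, a phospholipid-synthesis enzyme, one of -0.34 in CLIP, both called. EPT1 was at -0.06 (adjusted p = 0.604, edgeR) without CLIP siUPF1 replicate 2.

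SEPP1, the secreted selenium carrier with several selenocysteines, was higher in the 7 UPF1-expressing lines and not called in CLIP. It was at 13.5 ± 3.46 CPM with siUPF1 against 6.16 ± 0.304 CPM with siNT in WT, and at 7.23 ± 1.87 CPM against 5.79 ± 0.361 CPM in CLIP (SD, n = 3). The difference from CLIP was called in WT (0.82, adjusted p = 0.0167), K498A (1.04), DE636AA (1.01), GA-KH (0.74) and E797R (0.88) in edgeR's quasi-likelihood test, and not in R843C (0.39) or A546H (0.54). Without CLIP siUPF1 replicate 2 SEPP1 was called higher in CLIP too (0.49, adjusted p = 0.0178, edgeR). The differences from CLIP given here for SEPP1 include that library.

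Of the 11 genes of the selenocysteine machinery, all tested, 5 were higher and 3 lower in CLIP, where 25.1% and 22.3% of all genes were called, with a median of 0.20. Leaving out CLIP siUPF1 replicate 2 gave 5 and 2, with a median of 0.01. SECISBP2, which recruits the elongation factor to the SECIS element, fell in all 8 lines, with log2 fold changes of -0.64 to -0.37. Its level was 51.6 ± 1.598 CPM with siUPF1 against 80.1 ± 4.59 CPM with siNT in CLIP and 54.7 ± 5.00 against 82.0 ± 1.59 CPM in WT. SEPHS1, a relative of the selenophosphate synthetase SEPHS2, also fell in all 8 lines (-0.44 to -0.32), a pattern found in 5.24% of all genes.

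TRIT1, which modifies the selenocysteine transfer RNA among others, rose in all 8 lines, by 0.25 to 1.02. It was at 40.4 ± 5.89 CPM with siUPF1 against 19.9 ± 0.660 CPM with siNT in CLIP and at 22.9 ± 1.51 against 19.0 ± 0.685 CPM in WT, a difference between the 2 responses of -0.75 (SE 0.12, called by edgeR). SARS, the synthetase that charges this transfer RNA with serine, was higher in CLIP (0.39, adjusted p = 9.4e-06, edgeR) and called in no other line. Without CLIP siUPF1 replicate 2 the CLIP values were 1.12 for TRIT1 and 0.39 for SARS, both called.

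Relatives and partners moved in both directions as well, in counts to be read beside 25.1% of all genes called higher and 22.3% lower in CLIP. In CLIP, 2 of 4 tested cysteine-containing relatives were higher (MIEN1, 0.43, and MSRB3, 0.34) and 1 lower (MSRB2, -0.47), with a median of 0.20. The count was again 2 and 1, with a median of 0.26, without CLIP siUPF1 replicate 2, but MIEN1 lost its call (0.32, adjusted p = 0.0558, edgeR) and GPX8 gained one (0.20, adjusted p = 0.0170). Of 16 targets of NRF2, the oxidative stress factor that also drives TXNRD1, 5 were higher and 4 lower with a median of -0.04, and without CLIP siUPF1 replicate 2 the count was 5 and 3. Examples are OSGIN1 at 1.29, PIR at -0.87, ME1 at -0.73 and GCLM, a subunit of the enzyme of glutathione synthesis, at -0.72. Without that library they were at 1.14, -0.79, -0.50 and -0.56, all still called. Over the 8 lines FTL and GCLC rose and PIR fell in every one.

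Of 14 thioredoxin and glutathione partners, 2 were higher and 5 lower in CLIP with a median of -0.09, against 4 and 3 with a median of 0.03 without CLIP siUPF1 replicate 2. TXNIP, the inhibitor of thioredoxin, rose in all 8 lines (0.82 to 2.18), as did PRDX1. PRDX3, the mitochondrial peroxiredoxin whose thioredoxin is kept reduced by TXNRD2, fell in all 8 lines with log2 fold changes of -3.42 to -2.59. PRDX2 fell in all 8 (-0.997 to -0.48) and GLRX in 7 (-1.37 in CLIP). Without CLIP siUPF1 replicate 2 the CLIP values were 2.14 for TXNIP, -3.13 for PRDX3, -0.84 for PRDX2 and -1.10 for GLRX, all called.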

How the data were processed

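RNA of 48 libraries (8 lines, 2 siRNAs, 3 libraries per group) was measured in expected counts per gene, not normalised. The authors deposited these expected counts for 57820 genes; trimming with cutadapt, STAR, RSEM, DESeq2 and the build hg19 are named per the submitters' processing notes, and versions, annotation release and strand setting are not given in the sources used here. Groups and replicate numbers come from the labels, and the design text calls the triplicates biological replicates. Counts were rounded, and edgeR 4.0.16 was run under R 4.3.3 (filterByExpr, TMM factors of 0.974 to 1.04, 1 quasi-likelihood model with 16 group terms, Benjamini-Hochberg adjustment over 19129 genes). The 28 comparisons were 8 knockdown responses, 7 differences from the CLIP response, 6 from the WT response and 7 between siNT libraries. CPM are scaled to normalised totals. The fit was tested on simulated data. Alternatives were DESeq2 1.42.0, RLE size factors, no filter, only the groups compared, a replicate block and leaving out each library.

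Replicate pairs differed by 3.90 to 139 times the sampling noise (chi-square per degree of freedom, 48 pairs), so none was a duplicate. Same-numbered libraries of siUPF1 and siNT deviated together, with every correlation above 0.1, in 5 lines (WT, K498A, DE636AA, R843C and GA-KH, 0.24 to 0.68), but not in CLIP, A546H and E797R. By this rule the siUPF1 and siNT numbers pair the libraries in 5 lines, but missing it does not show that libraries are unpaired. In A546H the correlations were 0.55, 0.05 and 0.59. The main model ignored pairing in every line, and a block within each line was added after seeing the data. The members and lists were chosen with earlier results of these data known. Genes other than the members were named as the 4 of a list with the largest change in CLIP. VIMP and GPX8 were named beyond these 4. SEPP1, FTL, GCLC and PRDX1 were added after their values were seen. Likeness was computed on genes averaging 5 CPM or more.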

Additional observations from a re-analysis of the deposited data

Results flagged for a closer look

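In 10 cases the response to siUPF1 differed between 2 lines in edgeR's quasi-likelihood test of the difference itself. From the CLIP response, SELT differed in WT by 0.82, in K498A by 0.99, in DE636AA by 1.10 and in GA-KH by 0.85 (log2). TXNRD1 differed from CLIP by 0.56 in K498A and by 0.64 in DE636AA, and SELK by 0.52 and SEP15 by 0.62 in DE636AA. TXNRD2 differed from CLIP by -0.53 in E797R, and TXNRD1 in DE636AA differed from WT by 0.40. The CLIP siUPF1 library replicate 2, with SELT at 8.68, SEP15 at 22.3 and SELK at 17.7 CPM, enters the first 9 values. Without it 4 of those 9 kept their calls, namely SELT and TXNRD1 in K498A and DE636AA. With only the groups compared in the fit, none of the 10 was called, and the share of all genes called in that fit was not counted.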

How the results depend on the processing

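Of 4070 member values recomputed under another setting, 84 lost a call, 77 gained one, 0 called values changed sign and 3909 stayed on their side of the threshold, among which values that were not called could change sign. Counts of members called that moved by more than 1.5 times were as follows, and smaller moves are not listed. With only the groups compared, CLIP had 2 called against 7, R843C 4 against 2, DE636AA siNT against CLIP siNT 2 against 1, and the differences from CLIP in WT, K498A, DE636AA, GA-KH and E797R and of DE636AA from WT 0. With a replicate block, R843C had 4 (GPX1 higher and GPX4 lower were gained), WT minus CLIP 2, K498A minus CLIP 4, E797R minus CLIP 2, K498A siNT 1 and DE636AA siNT 2. With a replicate block within each line, chosen after seeing the data, R843C had 4, WT minus CLIP 3, K498A minus CLIP 4, A546H minus CLIP 1, GA-KH minus CLIP 2, E797R minus CLIP 4 and K498A minus WT 2. Of all 19129 genes that fit called 7328, 3612, 4136, 2247, 4556, 3987 and 1180 in the same order, so calls rose among all genes too. The main fit called 3389 higher and 2824 lower in R843C, and 2267, 2599, 1077, 2734, 2539 and 623 in the differences. Without a filter, WT minus CLIP had 2, A546H minus CLIP 1, E797R minus CLIP 2, DE636AA minus WT 0 and DE636AA siNT 2. With DESeq2, WT minus CLIP had 2 and K498A siNT 1, and DESeq2 also called SEP15 in DE636AA and GPX4 in A546H (-0.29, adjusted p = 0.0460). Apart from the block within each line, the share of all genes called under these settings was not counted. Moves of the members under them therefore have no background beside them. The causes were not tested. Leaving out 1 library at a time gave 5 to 8 called in CLIP, 3 to 4 in WT, A546H and GA-KH, 4 to 5 in K498A, 5 to 6 in DE636AA, 2 to 2 in R843C and 3 to 3 in E797R. Of all genes these fits called 40.5% to 49.2% in CLIP, 21.7% to 24.4% in WT, 25.8% to 28.5% in K498A and 27.4% to 30.4% in DE636AA. They called 26% to 27.7% in R843C, 25.8% to 28% in A546H, 22.1% to 24% in GA-KH and 23.2% to 25.8% in E797R. For differences from CLIP, leaving out 1 library gave 0 to 5 in WT, 1 to 3 in K498A, 2 to 4 in DE636AA, 0 to 0 in R843C and 0 to 2 in A546H, GA-KH and E797R, and 0 to 1 for DE636AA minus WT and DE636AA siNT. Depth limits SELM most, at 31 to 137 counts per library.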
